A study of Mus musculus with 28 samples.

Results

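The glycine receptor genes *Glra2*, *Glra3* and *Glrb*, the scaffold gene *Gphn* (gephyrin) and the glycine transporter gene *Slc6a9* were followed in amygdala RNA-seq. The tissue came from 28 adult female C57BL/6J mice (spelled C57BL6/J in the labels). The 5 genes were a fixed list, found by symbol (GENCODE M21) among the 49477 genes present in both deposited count tables. Water mice (n = 10) received no alcohol, Acute Drinking mice (n = 9) had a single access to 20% alcohol, and Chronic Drinking mice (n = 9) had every-other-day access to 20% alcohol over a month. The mice were housed individually, alcohol remained in the cages of both drinking groups until collection, and the bilateral micropunches contained both the central (CeA) and the basolateral (BLA) amygdala. Of the 11 mice of the first batch 4 were Water, 4 Acute and 3 Chronic, and of the 17 of the second batch 6, 5 and 6. Each value therefore describes a mixed punch of both nuclei in females of 1 inbred strain.

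Glycine receptors are ligand-gated chloride channels built from α subunits, which bind glycine, and the β subunit encoded by *Glrb*. The β subunit binds gephyrin, which anchors glycine receptors and many GABA-A receptors beneath the inhibitory postsynaptic membrane and is also an enzyme of molybdenum cofactor synthesis. *Slc6a9* encodes GlyT1, a largely glial transporter that clears glycine from the extracellular space and so also sets the glycine available to NMDA receptors. Ethanol is known to enhance currents through glycine receptors, and both α2 and α3 subunits are found in the adult forebrain.

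On GRCm38, *Glra2* (ENSMUSG00000018589) lies on the minus strand of chrX:165129017-165327393 and has 1 annotated transcript. *Glra3* (ENSMUSG00000038257) lies on the plus strand of chr8:55940460-56130070 with 2 transcripts, and *Glrb* (ENSMUSG00000028020) on the minus strand of chr3:80843599-80913660 with 6. *Gphn* (ENSMUSG00000047454) spans the plus strand of chr12:78226379-78684772 with 3 transcripts, and *Slc6a9* (ENSMUSG00000028542) the plus strand of chr4:117834506-117875198 with 12. The exons of both α subunit genes and *Glrb* overlapped no exon of another gene. The exons of *Gphn* shared 147 bases with *Gm48226* on the other strand. Those of *Slc6a9* shared 1429 bases with *Ccdc24*, 511 with *Gm17114* and 46 with *B4galt2*, all on the other strand. *Slc6a9* had a mean of 1078 counts per mouse, *Ccdc24* of 37.5 and *B4galt2* of 1308. Whether the counting used strand is not given in the sources used here, so reads from these shared bases cannot be assigned with certainty.

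The sequences upstream of the starts of the receptor subunit genes are shown as a description. Whether they bear on the level or the spread of these genes was not tested. RefSeq upstream windows (GRCm38.p6, 250 bases before an annotated start) were found for all 5 genes, 7 windows in all, and those of *Glra2*, *Glra3* and *Glrb* overlapped no exon. Capitals mark matches, on either strand, to TATAAA (reverse complement TTTATA), to CCAAT (reverse complement ATTGG) and to GGGCGG (reverse complement CCGCCC). No match in the printed windows overlapped that of another motif. The windows read 5′ to 3′ on the gene's strand, and lie at chrX:165327394-165327643 (minus), chr8:55940168-55940417 (plus) and chr3:80913661-80913910 (minus).
Glra2: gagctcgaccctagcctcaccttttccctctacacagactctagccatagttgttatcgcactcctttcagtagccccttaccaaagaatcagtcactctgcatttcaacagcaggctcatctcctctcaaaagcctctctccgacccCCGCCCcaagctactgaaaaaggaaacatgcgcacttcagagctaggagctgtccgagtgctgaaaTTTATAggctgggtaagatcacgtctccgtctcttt
Glra3: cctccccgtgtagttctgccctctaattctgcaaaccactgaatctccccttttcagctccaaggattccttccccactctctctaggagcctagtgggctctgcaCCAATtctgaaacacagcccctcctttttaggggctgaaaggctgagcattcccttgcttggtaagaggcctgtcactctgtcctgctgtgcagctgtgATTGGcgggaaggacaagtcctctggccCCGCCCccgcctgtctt
Glrb: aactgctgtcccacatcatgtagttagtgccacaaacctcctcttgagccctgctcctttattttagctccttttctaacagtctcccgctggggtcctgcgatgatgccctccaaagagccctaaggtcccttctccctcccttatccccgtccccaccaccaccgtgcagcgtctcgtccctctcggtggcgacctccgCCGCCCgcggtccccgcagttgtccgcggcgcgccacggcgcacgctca
The *Glrb* window had a GC content of 62.4% and 20 CpG dinucleotides. The *Glra2* window had 50.4% and 8, and the *Glra3* window 56.0% and 4. TATAAA stood only in the *Glra2* window among the 7 and in 12.37% of all 32851 windows of this length. CCAAT stood only in the *Glra3* window and in 33.85% of all windows. GGGCGG occurred upstream of at least 1 start of each of the 5 genes and in 32.74% of all windows, and TGACGT (reverse complement ACGTCA) in none of the 7 and in 6.47% of all. These matches describe the letters in these windows only.

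Total counts were similar across groups, from 20004380 to 22569562 per mouse. The lowest count of any of the 5 genes in a mouse was 535. All 5 genes passed the filter of 10 counts on average, as did 16266 genes in all. Neuronal markers were abundant in every mouse, with *Snap25* between 1372 and 1907 in counts-per-million units (CPM, scaled by edgeR's TMM factors). Markers of both regions were present, *Slc17a7* of pallial excitatory neurons at 792 to 1573 CPM and *Prkcd* of the central amygdala at 22.7 to 49.8 CPM. The choroid plexus marker *Ttr* ranged from 0.258 to 3903 CPM, and the score of its list passed an adjusted correlation test with none of the 5 genes. In bulk tissue, fewer cells of a type and less RNA per cell cannot be told apart.

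*Glrb* was the most abundant of the 5 genes per length of exon and *Glra3* the least. *Glrb* reached 41.9 ± 1.27 CPM per kb (SD, n = 28), *Gphn* 19.9 ± 0.942, *Glra2* 11.4 ± 1.33, *Slc6a9* 10.1 ± 1.08 and *Glra3* 4.20 ± 0.505. *Glrb* exceeded *Gphn*, *Gphn* exceeded *Glra2*, and *Slc6a9* exceeded *Glra3* in 28 of 28 mice. *Glra2* exceeded *Slc6a9* in 23 of 28, so these neighbours in the order overlapped. Their order also turned when the longest transcript was used as the length, at 11.4 CPM per kb for *Glra2* and 15.0 for *Slc6a9*. On that scale *Glrb* stood at 64.3 and *Glra3* at 5.94 CPM per kb, and the other ranks stayed as they were. The remaining α subunit genes were close to the floor of detection. *Glra1*, the adult spinal cord subunit, had a median of 0.806 CPM, and *Glra4* of 0.568 CPM. *Slc6a5*, the transporter of glycinergic neurons, had between 0 and 5 counts per mouse, with a median of 1, and was not tested.

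**Figure D1:**
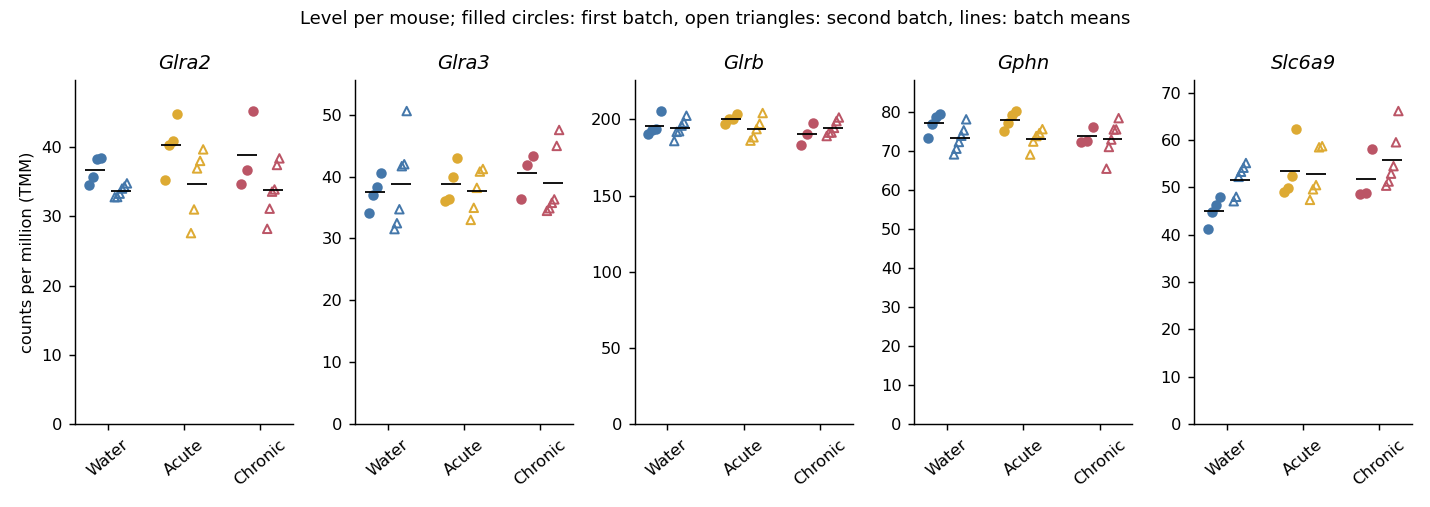
Level of each gene (CPM, linear axis from 0) in every mouse by drinking group. Filled circles are the first batch, open triangles the second, and black lines the batch means of each group. The groups overlap for all 5 genes, and the first-batch Water mice lie at 41.3 to 48.1 CPM for Slc6a9, with the second-batch mice starting at 47.1 CPM.

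No difference between groups passed the threshold for any of the 5 genes. With edgeR's quasi-likelihood test, batch as a covariate and Benjamini-Hochberg adjustment over 16266 genes, 0 of 5 were called in Acute against Water, against 0% of all genes, and 0 of 5 in Chronic against Water, against 0.0184% of all genes. Chronic against Acute also gave 0 of 5, with 0% of all genes called. At an unadjusted p under 0.05, 1 of 5 (*Slc6a9*, higher) passed in Acute against Water, where 9.52% of all genes passed, 5.07% upward and 4.45% downward. The same gene passed in Chronic against Water, where the share of all genes was 10.5%, with 4.81% upward and 5.65% downward. None of the 5 passed in Chronic against Acute, where the share was 4.44%, with 1.95% upward and 2.5% downward. DESeq2, ComBat-seq followed by DESeq2, and limma-voom also called 0 of 5 in each comparison. At an unadjusted p under 0.05, DESeq2 gave 1, 1 and 0 of the 5 genes in the same order of comparisons, whereas the other two gave 0, 1 and 0.

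*Slc6a9* was the gene of the 5 with the largest difference between alcohol and Water mice. Its level ranged in the Water group from 41.3 to 55.2 CPM with a median of 48.0. Acute mice ranged from 47.4 to 62.4 CPM (median 50.5), and Chronic mice from 48.7 to 66.1 CPM (median 52.9). The lower end of both alcohol groups lay above the lower end of Water, and all groups overlapped. After removal of the batch means, 9 of 9 Chronic mice were above the Water mean and 3 of them above every Water mouse. Among Acute mice, 7 of 9 were above the Water mean and 4 above every Water mouse. Set against the Water mean of their own batch, 3 of 3 Chronic mice were above it in the first batch and 4 of 6 in the second, and 4 of 4 and 2 of 5 Acute mice.

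The *Slc6a9* log2 fold change was 0.15 in Chronic against Water (SE 0.059, 95% interval 0.03 to 0.27), with edgeR p = 0.0193 and Benjamini-Hochberg adjusted p = 0.366. In Acute against Water it was 0.12 (SE 0.059, 95% interval 0.003 to 0.25), with edgeR p = 0.0446 and adjusted p = 0.513. As linear ratios these are 1.11-fold and 1.09-fold. The exact 2-sided permutation test within batches gave p = 0.0171 for Chronic and p = 0.0618 for Acute against Water, over 32340 regroupings each. The edgeR log2 fold change of Chronic against Acute was 0.02 (95% interval -0.10 to 0.15, adjusted p = 0.999). The upward difference from Water thus did not hold against adjustment over all genes in either drinking group.

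The *Slc6a9* difference from Water was larger in the first batch than in the second, but this contrast did not pass a test. In the first batch, the 4 Water mice stood at 41.3, 44.8, 46.2 and 48.1 CPM and the 4 Acute mice at 49.1, 49.9, 52.5 and 62.4 CPM. The 3 first-batch Chronic mice stood at 48.7, 48.7 and 58.2 CPM. Every alcohol mouse of that batch was therefore above every Water mouse, though narrowly, with 48.7 against 48.1 CPM as the nearest values. How many of all genes separate in this way was not counted. In the second batch, the 6 Water mice were at 47.1 to 55.2 CPM, the 5 Acute mice at 47.4 to 58.7 CPM and the 6 Chronic mice at 50.4 to 66.1 CPM, and the groups overlapped. The log2 difference of Acute from Water was 0.24 in the first batch (exact permutation p = 0.0286, the smallest that 4 against 4 mice allow) and 0.03 in the second (exact permutation p = 0.662). That of Chronic from Water was 0.20 (exact permutation p = 0.0571) and 0.11 (exact permutation p = 0.173). The difference between batches was itself tested as a group by batch interaction in edgeR and did not pass. The joint p was 0.22 (adjusted p = 0.969). Unadjusted p was 0.085 for the Acute term and 0.457 for the Chronic term.

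For *Glra2*, the α2 subunit gene, no difference in mean passed a test, and its values were spread more widely in the drinking groups. Water mice ranged from 32.8 to 38.4 CPM (median 34.4), Acute mice from 27.6 to 44.8 CPM (median 38.0) and Chronic mice from 28.2 to 45.2 CPM (median 34.6). The 10 Water mice lay inside the range of both alcohol groups. After removal of the batch means, the SD of log2 CPM was 0.0599 for Water, 0.181 for Acute and 0.165 for Chronic mice. Counting alone would give an SD of 0.053 for this gene, close to that of Water. The SD in the first batch was 1.9 CPM (4 Water mice), 3.9 CPM (4 Acute) and 5.6 CPM (3 Chronic). In the second batch it was 0.829 CPM (6 Water mice), 5.12 CPM (5 Acute) and 3.81 CPM (6 Chronic). This contrast in spread was chosen after the values were seen and was not tested. The edgeR log2 fold change was 0.08 in Acute against Water (SE 0.063, 95% interval -0.05 to 0.21, adjusted p = 0.695) and 0.03 in Chronic against Water (SE 0.063, 95% interval -0.10 to 0.16, adjusted p = 0.892). Chronic against Acute gave -0.05 (95% interval -0.18 to 0.09, adjusted p = 0.999). Without Acute 5 of the second batch, the edgeR value of Acute against Water was 0.121 (p = 0.048, adjusted p = 0.421). With 2 surrogate variables that value was 0.0296 (edgeR p = 0.582, adjusted p = 0.865).

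For *Glra3*, the α3 subunit gene, no difference between groups passed a test. Its Water mice covered the widest range, from 31.5 to 50.6 CPM with a median of 37.6. Acute mice ranged from 33.0 to 43.0 CPM (median 38.2) and Chronic mice from 34.5 to 47.5 CPM (median 36.4), and no alcohol mouse was outside the Water range once batch means were removed. The SD of log2 CPM, with batch means removed, was 0.207 for Water, 0.124 for Acute and 0.175 for Chronic mice, and its difference between groups was not tested. The log2 fold change in edgeR was -0.005 in Acute (95% interval -0.16 to 0.15, adjusted p = 0.992) and 0.05 in Chronic against Water (95% interval -0.11 to 0.20, adjusted p = 0.880). Chronic against Acute was 0.05 (95% interval -0.11 to 0.21, adjusted p = 0.999).

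*Glrb* and *Gphn*, the shared β subunit and its scaffold, were the most even of the 5 genes and had the narrowest intervals. *Glrb* lay at 186 to 206 CPM in Water (median 193), at 186 to 204 CPM in Acute (median 197) and at 183 to 201 CPM in Chronic mice (median 191). For *Gphn* the Water mice lay at 69.1 to 79.4 CPM (median 74.6), the Acute mice at 69.1 to 80.2 CPM (median 75.2) and the Chronic mice at 65.4 to 78.4 CPM (median 72.9). The 3 groups almost coincided for both genes. In edgeR the *Glrb* log2 fold change was 0.01 in Acute (95% interval -0.03 to 0.06, adjusted p = 0.897) and -0.01 in Chronic against Water (95% interval -0.06 to 0.04, adjusted p = 0.890). That of *Gphn* was 0.01 (95% interval -0.06 to 0.07, adjusted p = 0.965) and -0.02 (95% interval -0.09 to 0.04, adjusted p = 0.835). Chronic against Acute was -0.03 for *Glrb* (95% interval -0.08 to 0.02, adjusted p = 0.998) and -0.03 for *Gphn* (95% interval -0.09 to 0.03, adjusted p = 0.999). The data therefore bound any mean difference of these genes more tightly than one of the α subunits.

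**Figure D2:**
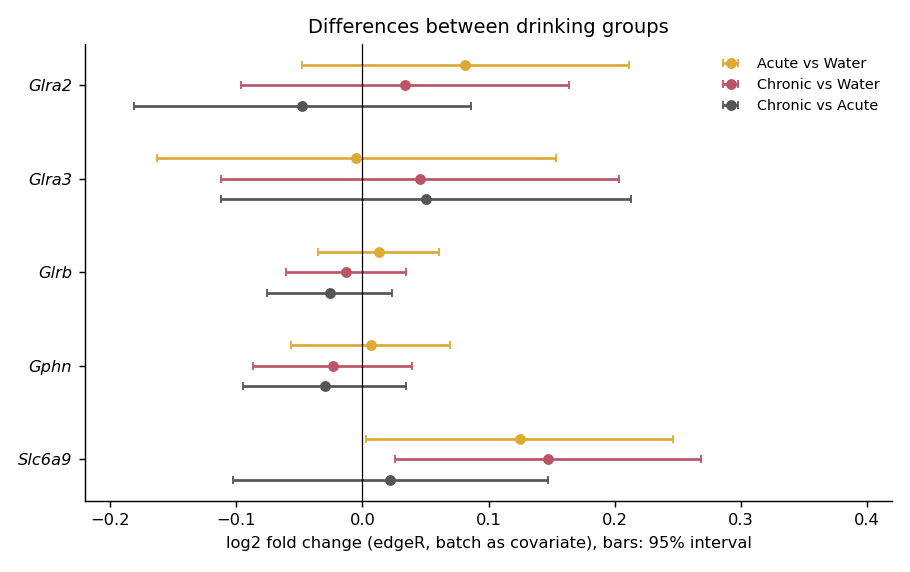
Log2 fold changes of the 5 genes in the 3 comparisons (points) with 95% intervals (bars) from edgeR's quasi-likelihood fit with batch as a covariate. The intervals of Slc6a9 against Water lie above 0, from 0.03 to 0.27 in Chronic, without passing adjustment over 16266 genes, and all other intervals include 0.

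The genes differed widely in their spread between mice. With group and batch means removed, the SD of log2 CPM was 0.043 for *Glrb* and 0.064 for *Gphn*. It was 0.13 for *Slc6a9*, 0.15 for *Glra2* and 0.18 for *Glra3*. The median over 11723 genes averaging 100 counts or more was 0.11, and only 0.623% of them had a smaller SD than *Glrb*. Since *Glrb* has high counts, it was also set beside the 1875 genes within 2-fold of its mean count, of which 2.88% had a smaller SD. For *Gphn* 18.3% of the genes within 2-fold of its count had a smaller SD. The share was 82.0% for *Slc6a9*, 85.4% for *Glra2* and 91.8% for *Glra3*, so the α subunit genes and the transporter gene varied more than most genes of like abundance. The part of the SD that counting would give was 0.053 for *Glra2*, 0.051 for *Glra3*, 0.044 for *Slc6a9*, 0.037 for *Gphn* and 0.023 for *Glrb*, below the observed SD in each case. Levels also moved with batch, *Glra2* being lower in the second batch by a log2 difference of -0.18 and *Slc6a9* higher by 0.10, where the median over all genes was -0.01 and their quartiles were -0.14 and 0.11. The shift of *Slc6a9* thus lay inside the middle range of all genes and that of *Glra2* below it.

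**Figure D3:**
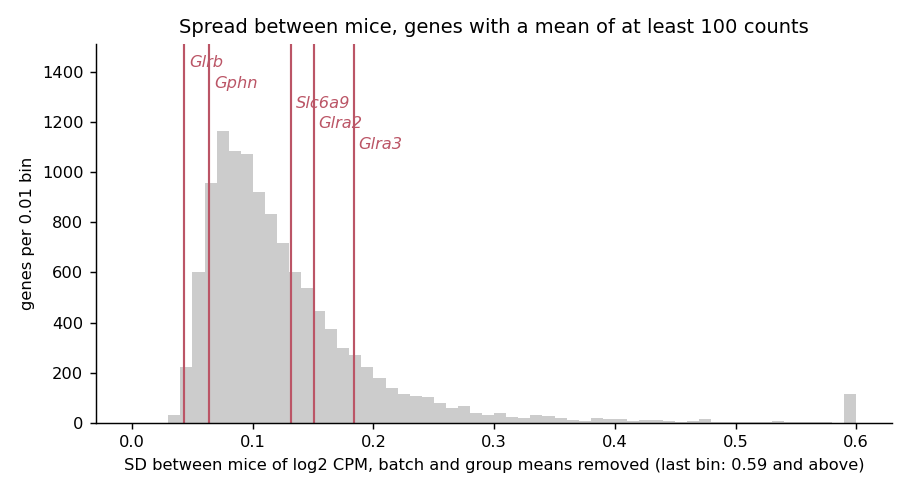
SD between mice of log2 CPM, with group and batch means removed, for 11723 genes averaging 100 counts or more (grey bars, genes per 0.01 bin, the last bin holding all larger values). Red lines mark the 5 genes, with Glrb at 0.043 near the left edge and Glra3 at 0.18 in the right flank.

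*Glra2* and *Slc6a9* rose and fell together from mouse to mouse. Over the 28 mice, with batch means removed, Pearson's r was 0.69 and Spearman's rho 0.68, with permutation p = 4e-05 and p = 0.00013 and Benjamini-Hochberg adjusted p = 0.0004 and p = 0.0013 over the 10 pairs of genes. Without the 2 mice farthest from the median of *Glra2*, Acute 5 and Chronic 1 of the second batch, r was 0.73, and without any single mouse it stayed between 0.65 and 0.74. It was 0.82 in the 11 mice of the first batch. In the 17 mice of the second batch r was 0.61, with permutation p = 0.00958 and an adjusted p = 0.0958, which did not pass. With group means removed as well, r was 0.72. It was the 1 pair of 10 to pass by either coefficient. The next was *Glra2* with *Glra3*, at r = 0.39 and rho = 0.40 (permutation p = 0.0463 and p = 0.0338, adjusted p = 0.196 and p = 0.113), which fell to r = 0.28 without the 2 mice farthest from the median of *Glra2*. *Glrb* and *Gphn*, whose products bind each other, gave r = 0.34 and rho = 0.33 (permutation p = 0.0805 and p = 0.0897, adjusted p = 0.201 and p = 0.224), and r = 0.22 without the 2 farthest mice. *Glrb* gave r = 0.10 with *Glra2* (rho 0.10, permutation p = 0.629 and p = 0.626) and r = -0.11 with *Glra3* (rho -0.06, permutation p = 0.571 and p = 0.749).

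**Figure D4:**
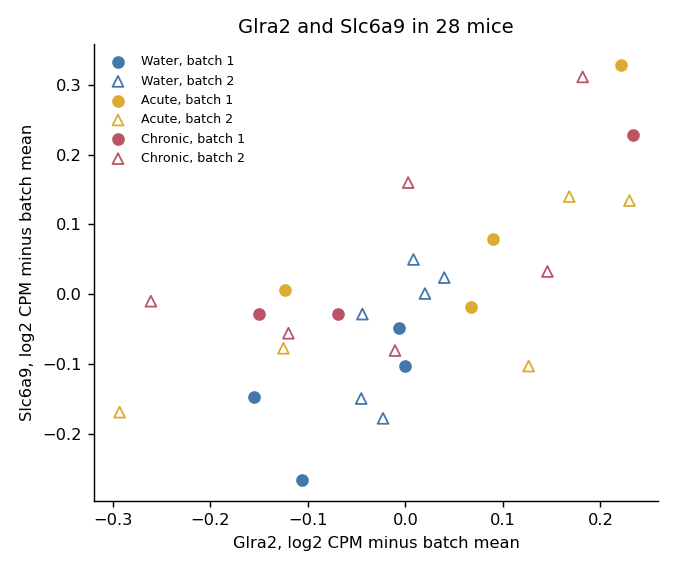
Glra2 against Slc6a9 in 28 mice, each as log2 CPM minus the mean of its batch. Colours are drinking groups, filled circles the first and open triangles the second batch, and the points rise together with Pearson's r = 0.69.

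Both genes also followed markers of the makeup of the punch. Scores were means of log2 CPM over marker lists for 12 cell types or regions, with batch means removed. Of the 60 pairs of a gene and a score, 9 passed a Benjamini-Hochberg adjusted p of 0.05 by Pearson's r and 8 by Spearman's rho, with 7 by both. *Slc6a9* rose with the GABAergic neuron score (7 of 7 markers tested) at r = 0.74 and rho = 0.62 (permutation p = 4e-05 and p = 0.00066, adjusted p = 0.0008 and p = 0.0132), and *Glra2* at r = 0.65 and rho = 0.65 (permutation p = 0.00028 and p = 0.00052, adjusted p = 0.0042 and p = 0.0132). With the oligodendrocyte score (7 markers tested) *Slc6a9* gave r = 0.73 and rho = 0.58 (permutation p = 4e-05 and p = 0.00195, adjusted p = 0.0008 and p = 0.0234). *Glra2* gave r = 0.69 and rho = 0.68 with it (permutation p = 3e-05 and p = 0.00016, adjusted p = 0.0008 and p = 0.0096). With the astrocyte score *Slc6a9* gave r = 0.08 and rho = -0.04 (permutation p = 0.676 and p = 0.854, adjusted p = 0.752 and p = 0.918), with r = 0.54 in the first batch, -0.30 in the second and -0.02 without the 2 farthest mice. With the general neuron score r was -0.40 for *Glra2* (adjusted p = 0.112) and -0.28 for *Slc6a9* (adjusted p = 0.344), and both passed once group means were removed as well, at r = -0.47 (permutation p = 0.00775, adjusted p = 0.0373) and r = -0.49 (permutation p = 0.00801, adjusted p = 0.0373).

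The excitatory pallial neuron score (6 of 6 markers) ran the other way. It gave r = -0.61 and rho = -0.60 with *Glra2* (permutation p = 0.00046 and p = 0.00124, adjusted p = 0.0054 and p = 0.0186), and r = -0.65 and rho = -0.49 with *Slc6a9* (permutation p = 0.00054 and p = 0.00935, adjusted p = 0.0054 and p = 0.058). *Slc6a9* also followed the central amygdala score at r = 0.59 and rho = 0.54 (permutation p = 0.00198 and p = 0.00442, adjusted p = 0.0149 and p = 0.0379). The scores were not independent of each other, and *Sst* is in both the GABAergic and the central amygdala list, as *Prkcd* is in both the central amygdala and the thalamus and brainstem list. The GABAergic score gave r = 0.83 with the oligodendrocyte score and r = -0.71 with the pallial score over the same mice, with rho 0.70 and -0.60. Leaving out the 2 mice farthest from the median of each score changed the r of *Slc6a9* to 0.68 with the GABAergic, 0.57 with the oligodendrocyte, -0.53 with the pallial and 0.62 with the central amygdala score. The r of *Glra2* became 0.62, 0.68 and -0.46 with the first 3 scores.

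*Glra3* fell as the microglia score rose, at r = -0.61 and rho = -0.55 (permutation p = 0.00158 and p = 0.00623, adjusted p = 0.0135 and p = 0.0467), with r = -0.46 without the 2 farthest mice. With the striatum score r was -0.47 and rho -0.48 (permutation p = 0.00737 and p = 0.0118, adjusted p = 0.0491 and p = 0.059), and r = -0.56 without the 2 farthest mice. With the thalamus and brainstem score rho was 0.52 and r 0.37 (permutation p = 0.00257 and p = 0.0152, adjusted p = 0.0257 and p = 0.0758), and r = 0.47 without the 2 farthest mice. Like *Glra2* and *Slc6a9*, *Glra3* had a negative coefficient with the pallial score, at r = -0.44 and rho = -0.40 (permutation p = 0.0107 and p = 0.0323, adjusted p = 0.064 and p = 0.121). With group means removed as well that r was -0.45 (permutation p = 0.00808, adjusted p = 0.0373). No score passed for *Glrb* or *Gphn*, their largest r being 0.44 for *Glrb* with the neuron score and 0.40 for *Gphn* with the central amygdala score. With group means removed as well, *Glrb* did pass with the excitatory pallial score (r = 0.53 and rho = 0.49, permutation p = 0.00323 and adjusted p = 0.0194 for r), where r was 0.43 with batch means alone removed (adjusted p = 0.107). In the first batch (11 mice) the r of *Slc6a9* was 0.87 with the GABAergic, 0.90 with the oligodendrocyte and -0.89 with the pallial score, and in the second (17 mice) 0.58, 0.52 and -0.38. That of *Glra2* was 0.79, 0.69 and -0.83 in the first and 0.56, 0.72 and -0.44 in the second. That of *Glra3* with microglia was -0.26 in the first and -0.69 in the second. In the second batch taken alone, 0 of the 60 pairs passed the adjusted threshold.

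**Figure D5:**
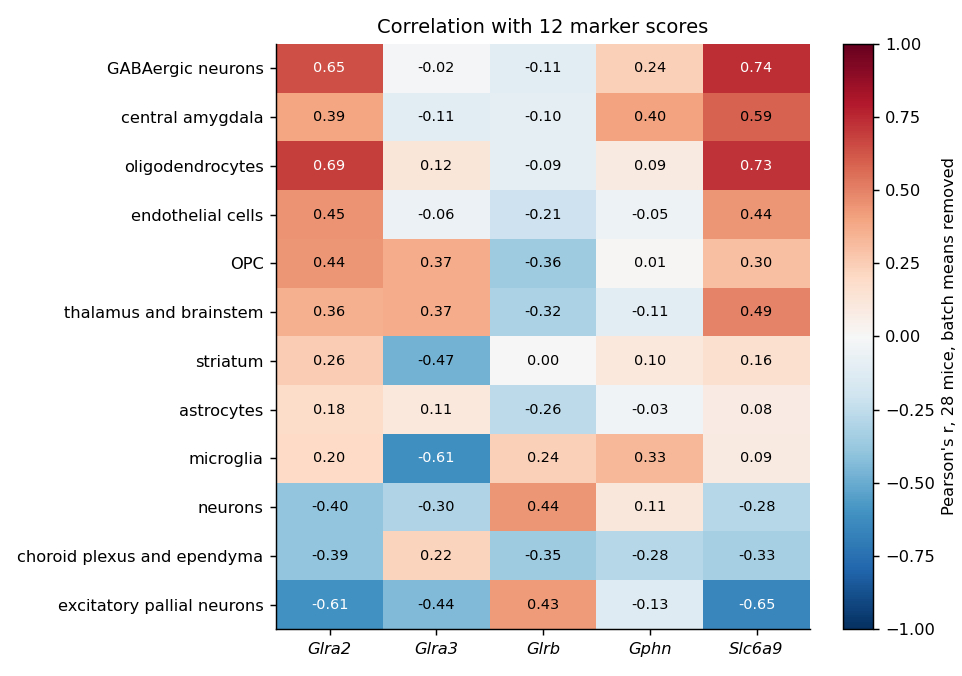
Pearson's r of each of the 5 genes (columns) with 12 marker scores (rows) over 28 mice, batch means removed, red positive and blue negative. Glra2 and Slc6a9 share high values for GABAergic neurons (0.65 and 0.74) and oligodendrocytes (0.69 and 0.73), and Glra3 is lowest with microglia (-0.61).

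No difference of these 3 scores between groups passed a test. The GABAergic score spanned -0.30 to 0.11 in Water, -0.11 to 0.24 among Acute and -0.11 to 0.16 among Chronic mice. Its Acute mean was 0.11 above that of Water (exact permutation p = 0.0894) and its Chronic mean 0.04 above it (exact permutation p = 0.434). The oligodendrocyte score spanned -0.52 to 0.24 in Water, -0.19 to 0.51 among Acute and -0.26 to 0.31 among Chronic mice, and was higher by 0.10 in Acute (exact permutation p = 0.372) and by 0.06 in Chronic mice (exact permutation p = 0.555). The pallial score spanned -0.34 to 0.56 in Water, -0.67 to 0.18 among Acute and -0.52 to 0.24 among Chronic mice, and differed from Water by -0.17 (exact permutation p = 0.252) and -0.05 (exact permutation p = 0.664). No marker of these 3 lists was at 0 in any mouse. Over the 36 score comparisons every adjusted p was at least 0.984, and 1 had an unadjusted p under 0.05, the striatum score, which was -0.41 in Chronic against Acute (exact permutation p = 0.0341).

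With the GABAergic score as a further covariate, the edgeR log2 fold change of *Slc6a9* was 0.03 in Acute against Water (p = 0.516, adjusted p = 0.868) and 0.11 in Chronic against Water (p = 0.0161, adjusted p = 0.264). With the oligodendrocyte score it was 0.08 (p = 0.0806, adjusted p = 0.559) and 0.12 (p = 0.00822, adjusted p = 0.219), and with the pallial score 0.07 (p = 0.164, adjusted p = 0.658) and 0.13 (p = 0.00976, adjusted p = 0.266). Both values were smallest with the GABAergic score, and the Chronic value was above 0.1 with each score. No test compared these fits, and the cause of the changes was not tested. The correlation of *Glra2* with *Slc6a9* was r = 0.42 (rho 0.43, permutation p = 0.0367 and p = 0.0278) after regression of both on the GABAergic score, and r = 0.39 (rho 0.47, permutation p = 0.0477 and p = 0.0144) on the oligodendrocyte score. On the pallial score it was r = 0.49 (rho 0.51, permutation p = 0.0147 and p = 0.00843). After regression on all 3 scores it was r = 0.31 (rho 0.32, permutation p = 0.135 and p = 0.106). These covariates were chosen after the data had been seen.

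The genes whose levels were most like each of the 5, among 11722 others averaging 100 counts or more, were ranked by Pearson's r over the 28 mice as a description without a test. For *Glra2* they were *Pbx3* (r = 0.85), *Arxes2* (0.83) and *Fibcd1* (0.83). *Pbx3* encodes a homeodomain transcription factor. For *Slc6a9* they were *Ache*, encoding acetylcholinesterase (r = 0.87), *Nova1*, encoding a neuronal splicing factor (0.86), and *Lhfpl3* (0.83). *Glra3* was nearest to *Pak3* (r = 0.84), *Rgs17* (0.84) and *C530008M17Rik* (0.79). The nearest genes to *Glrb* were *Snx7* (r = 0.74), *Sept7* (0.72) and *Il1rapl2* (0.71), and to *Gphn* they were *Ddx1* (0.74), *Grm8* (0.69) and *Zfp626* (0.66). None of the 5 genes was among the nearest 3 of another.

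The wider pathway was counted over 43 further genes, of which 41 were tested. By edgeR with Benjamini-Hochberg adjustment 0 of 41 were called in each comparison, as also with DESeq2, ComBat-seq followed by DESeq2 and limma-voom. At an unadjusted p under 0.05, 3 were higher and 1 lower in Acute against Water, 2 higher and 1 lower in Chronic against Water, and 1 higher and 1 lower in Chronic against Acute. These are 9.76%, 7.32% and 4.88% of the 41 genes, near the 9.52%, 10.5% and 4.44% of all genes. The median log2 fold change of the list was 0.02, 0.03 and -0.00, beside 0.00 over all genes in each comparison.

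Among the other receptor subunits and transporters (5 tested), none passed an unadjusted p of 0.05. The smallest p in each comparison was that of *Slc32a1*, the vesicular transporter that loads both GABA and glycine. Its level ranged over all mice from 99.3 to 300.0 CPM, and its log2 fold change was 0.25 in Acute against Water (edgeR p = 0.0611, adjusted p = 0.543), 0.10 in Chronic against Water (adjusted p = 0.824) and -0.15 in Chronic against Acute (adjusted p = 0.998). Of 19 gephyrin partners, which include the adhesion protein gene *Nlgn2* and synaptic GABA-A subunit genes, 1 was higher at an unadjusted p under 0.05 in both comparisons with Water. It was *Dynll2*, a dynein light chain gene whose product binds gephyrin, at 0.06 in Acute (edgeR p = 0.043, adjusted p = 0.508) and 0.06 in Chronic mice (edgeR p = 0.0438, adjusted p = 0.462). The comparisons with Water share the same 10 Water mice. In Chronic against Acute none of the 19 passed, the smallest p being that of *Vasp* (0.09, edgeR p = 0.0767, adjusted p = 0.998).

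Of 8 genes of glycine synthesis and cleavage, the serine synthesis gene *Psat1* was 0.09 on the log2 scale in Acute against Water (edgeR p = 0.0308, adjusted p = 0.497) and -0.11 in Chronic against Acute (edgeR p = 0.0117, adjusted p = 0.998). *Amt*, of the glycine cleavage system, was 0.10 in Chronic against Water (edgeR p = 0.0204, adjusted p = 0.370). Of 7 molybdenum cofactor genes, the group in which gephyrin acts as an enzyme, 1 was higher and 1 lower in Acute against Water at an unadjusted p under 0.05. In Chronic against Water 0 were higher and 1 lower. *Mocos* had the smallest p against Water. *Mocos*, the cofactor sulfurase gene, was low throughout at 0.964 to 2.49 CPM, with a log2 fold change of -0.50 in Acute (SE 0.12, edgeR p = 0.000382, adjusted p = 0.239) and -0.28 in Chronic mice (SE 0.12, edgeR p = 0.0302, adjusted p = 0.419). In Chronic against Acute the smallest p of that group was that of *Mocs1* (0.15, edgeR p = 0.0798, adjusted p = 0.998). The chloride transporters *Slc12a5* and *Slc12a2*, which set the direction of current through these receptors, gave no p under 0.05. *Slc12a5* was 0.02 in Acute (95% interval -0.04 to 0.08, adjusted p = 0.895) and 0.02 in Chronic against Water (95% interval -0.04 to 0.08, adjusted p = 0.888), and *Slc12a2* was 0.05 in Chronic against Acute (adjusted p = 0.999).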

How the data were processed

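Amygdala RNA of 28 mice was sequenced in 2 batches. The authors quantified the reads with Salmon 0.14.1 against a GRCm38/mm10 transcriptome, after FastQC 0.11.8 per the labels, summarized them by gene with tximport and the GENCODE M21 annotation, and deposited estimated counts rounded to whole numbers, 1 table per batch, before batch adjustment. Groups and batches were taken from the sample titles.

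The tables were joined on gene identifiers, and genes averaging 10 counts or more were kept. R 4.3.3 with edgeR 4.0.16 (quasi-likelihood test, TMM, batch as a covariate, 3 groups together, Benjamini-Hochberg, threshold 0.05) gave the main test. The SE is the size of the log2 fold change divided by the square root of F. log2 CPM used a prior count of 2. Exact tests enumerated all regroupings within batches, and correlations used 100000 permutations of mice within batches (Python 3.11.15, SciPy 1.17.1). All tests are 2-sided.

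The genes and lists were chosen with earlier results of these data known. By rule, all 5 genes were named, and from each pathway group the gene with the smallest p in a comparison. Per length, the union of exons was used. On simulated data with 200 changed genes among 16266, edgeR recovered 53% and 52% of changes of 0.3 and 87% of changes of 0.6 (log2) in Acute and Chronic against Water. No duplicated library was found among 55 pairs. Alternatives were DESeq2 1.42.0, ComBat-seq (sva 3.50.0) with DESeq2, limma-voom (limma 3.58.1), each batch alone, RLE and upper quartile scaling, other filters, a replicate block, GC and length offsets, 2 surrogate variables, 2 groups only, leaving out each mouse and, added later, marker scores as covariates. *Gldc* and *Opalin* were not matched in both tables and are not analysed here.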

Additional observations from a re-analysis of the deposited data

How the results depend on the processing

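The 5 genes and the 41 pathway genes stayed at 0 calls in each comparison under 17 alternatives and without any of the 28 mice. The *Slc6a9* log2 fold change against Water kept its sign throughout, from 0.03 to 0.243 in Acute and 0.108 to 0.202 in Chronic mice under the alternatives, and from 0.0845 to 0.151 and 0.113 to 0.164 without 1 mouse. Its unadjusted p rose over 0.05 without Chronic 38 (0.0515) or Chronic 3 (0.0578) in Chronic against Water, and without any of 11 mice in Acute against Water, the highest being 0.135 without Acute 33. It was also over 0.05 in Chronic against Water with GC and length offsets (0.0677, or 0.0937 with the block too) and in the first (0.0516) and the second batch alone (0.13). In Acute against Water it was over 0.05 with the replicate block (0.0624), the offsets (0.0672, or 0.0824 with the block too), 2 surrogate variables (0.139), the second batch alone (0.63), ComBat-seq and DESeq2 (0.0581), limma-voom (0.114) and each of the 3 scores as a covariate (0.0806 to 0.516). Over all genes, the 0 and 3 calls of edgeR in Acute and Chronic against Water became 9 and 38 with DESeq2, 30 and 88 with ComBat-seq and DESeq2, 3 and 2 with limma-voom, 3 and 27 with 2 surrogate variables, 1 and 4 without a filter, 0 and 1 with GC and length offsets, with or without the block, 0 and 0 in the first batch alone, 2 and 3 with the pallial score, and 0 to 2 and 2 to 6 without 1 mouse. In Chronic against Acute limma-voom and the fit without a filter gave 1 call each.

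Values close to 0 changed sign. *Glra3* in Acute against Water was 0.00481 with ComBat-seq and DESeq2, 0.0123 with limma-voom, 0.0496 in the first batch alone, 0.00169 without a filter, 0.00282 with the replicate block, 0.0662 with GC and length offsets, 0.0673 with the block and these offsets, and 0.000284 with 2 surrogate variables. In the second batch alone, *Glrb* was -0.0025, 7.19e-06 and 0.00251 in Acute against Water, Chronic against Water and Chronic against Acute, and *Gphn* -0.00142 in Acute against Water. With the offsets *Glrb* was 0.0227 in Chronic against Water (0.0233 with the block too) and *Slc6a9* -0.000454 in Chronic against Acute (-0.0063 with the block too). *Slc6a9* was -0.0415 in Chronic against Acute in the first batch alone. With the GABAergic score as a covariate, *Glra2* was -0.00634, -0.00194 and 0.0044 in the 3 comparisons and *Gphn* -0.00714 in Acute against Water. Without 1 mouse, the ranges that crossed 0 were -0.0318 to 0.0455 (*Glra3*) and -0.00425 to 0.0165 (*Gphn*) in Acute against Water, -0.00318 to 0.0634 (*Glra2*) in Chronic against Water and -0.0107 to 0.0609 (*Slc6a9*) in Chronic against Acute. The causes were not tested.

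In the second batch alone 0 of 10 pairs of genes and 0 of 60 pairs of a gene and a score passed, where 17 mice were used in place of 28. With group means removed too, 1 and 13 passed, *Glrb* with the pallial score among them. Replicate numbers did not pair the second-batch mice: 5 of 16 same-numbered pairs deviated together at r above 0.1 (-0.54 to 0.42), and 0 of 17 mice correlated best with their own number. The replicate block left 0 calls among the 5 genes and the pathway genes, and 3 over all genes in Chronic against Water.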
